A study of Homo sapiens with 7 samples.

Results

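The 35 genes described here encode the parts of the proteasome that lie outside its constitutive 20S core. They were chosen by symbol for their role, by a rule that uses no measured value, and all 35 were found among the 20072 gene rows of the deposited table. They comprise 6 ATPases of the 19S base (PSMC1 to PSMC6), 5 other base subunits (PSMD1, PSMD2, PSMD4, ADRM1 and UCHL5), 8 subunits of the 19S lid (PSMD3, PSMD6, PSMD7, PSMD8, PSMD11, PSMD12, PSMD13 and PSMD14), 3 chaperones of 19S assembly (PSMD5, PSMD9 and PSMD10), 5 chaperones of 20S assembly (PSMG1 to PSMG4 and POMP), 4 activators (PSME1 to PSME4), 1 inhibitor (PSMF1) and 3 catalytic subunits of the immunoproteasome (PSMB8, PSMB9 and PSMB10).

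HCT116, a human colon cancer cell line, was measured in exponential growth in 7 libraries, with no treatment compared. Transcription rate (TR) was measured by GRO-seq, in which nascent RNA is labeled with bromo-UTP in isolated nuclei, in 2 libraries. mRNA abundance (RA) was measured by RNA-seq in 3 libraries, and translation activity (TA) by sequencing polysome-associated mRNA in 2 libraries. All cells were of 1 line, grew in a serum-free McCoy's medium with epidermal growth factor, insulin and transferrin, and those used for TA received cycloheximide before lysis. The study calls the replicates biological, and neither the labels nor the methods say whether they came from separate cultures, so p-values measure the spread between these libraries. Each value is an average over a culture, in which fewer cells with an mRNA and less mRNA per cell cannot be told apart.

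The 26S proteasome degrades proteins tagged with ubiquitin. Its 19S cap binds the tag, removes it, unfolds the protein with a ring of ATPases and threads it into the 20S core, where the peptide bonds are cut. Other caps (the PA28 and PA200 activators) open the core without ATP, dedicated chaperones build cap and core, and cells exposed to interferon replace 3 catalytic subunits of the core with PSMB8, PSMB9 and PSMB10, which favors peptides for presentation to T cells. HCT116 libraries showed the epithelial identity of the line, with 6 of 7 epithelial marker genes between 47.1 and 978 RPKM in RA (read counts scaled to exon length and to library size). The exception was CDH17 at 0.105 RPKM. Of 9 markers of blood, fibroblast, endothelial and liver cells, 8 were at or under 0.155 RPKM in RA, and COL1A1 was at 11.5 RPKM.

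The library sizes solved from the RPKM values were 3391897 and 5629982 reads for TR, 20299018 to 22532134 for RA and 22421062 and 30805391 for TA. Of each, 99.7% or 99.8% fell on the listed genes, so these sizes count reads assigned to exons, not all reads sequenced. A member thus rested on 31 (PSMB9) to 1024 (PSMC5) reads in a TR library. RA replicate 1 was the highest of the 3 RA libraries for 26 of 35 members, against 42.1% of all genes tested, and member values in RA differed between libraries by a median of 1.38-fold and at most by 2.99-fold (PSMD1). Without RA replicate 1, 18 members were high and 8 low in stability, and 19 were high and 3 low in translation, in place of the 19, 5, 13 and 2 described below. Of 14305 genes tested, that fit called 2791 high and 6968 low in stability, and 1030 high and 4228 low in translation.

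Together the 35 genes made up a larger share of the transcriptome in RA and TA than in TR. Their share of the summed RPKM of all genes was 0.410% and 0.398% in TR, 0.659%, 0.476% and 0.493% in RA, and 0.819% and 0.769% in TA. The 3 ranges did not overlap. The median member stood at percentile 82.8 and 82.4 of the genes tested in TR, at 91.1, 87.2 and 87.3 in RA, and at 92.3 and 91.5 in TA. The median over the 14 genes of the 20S core was 47.6 and 42.4 RPKM in TR, 110 to 138 RPKM in RA, and 219 and 215 RPKM in TA. For the members the medians were 34.2 and 34.4 RPKM in TR, 43.5 to 60.7 RPKM in RA, and 73.1 and 68.1 RPKM in TA.

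**Figure D1:**
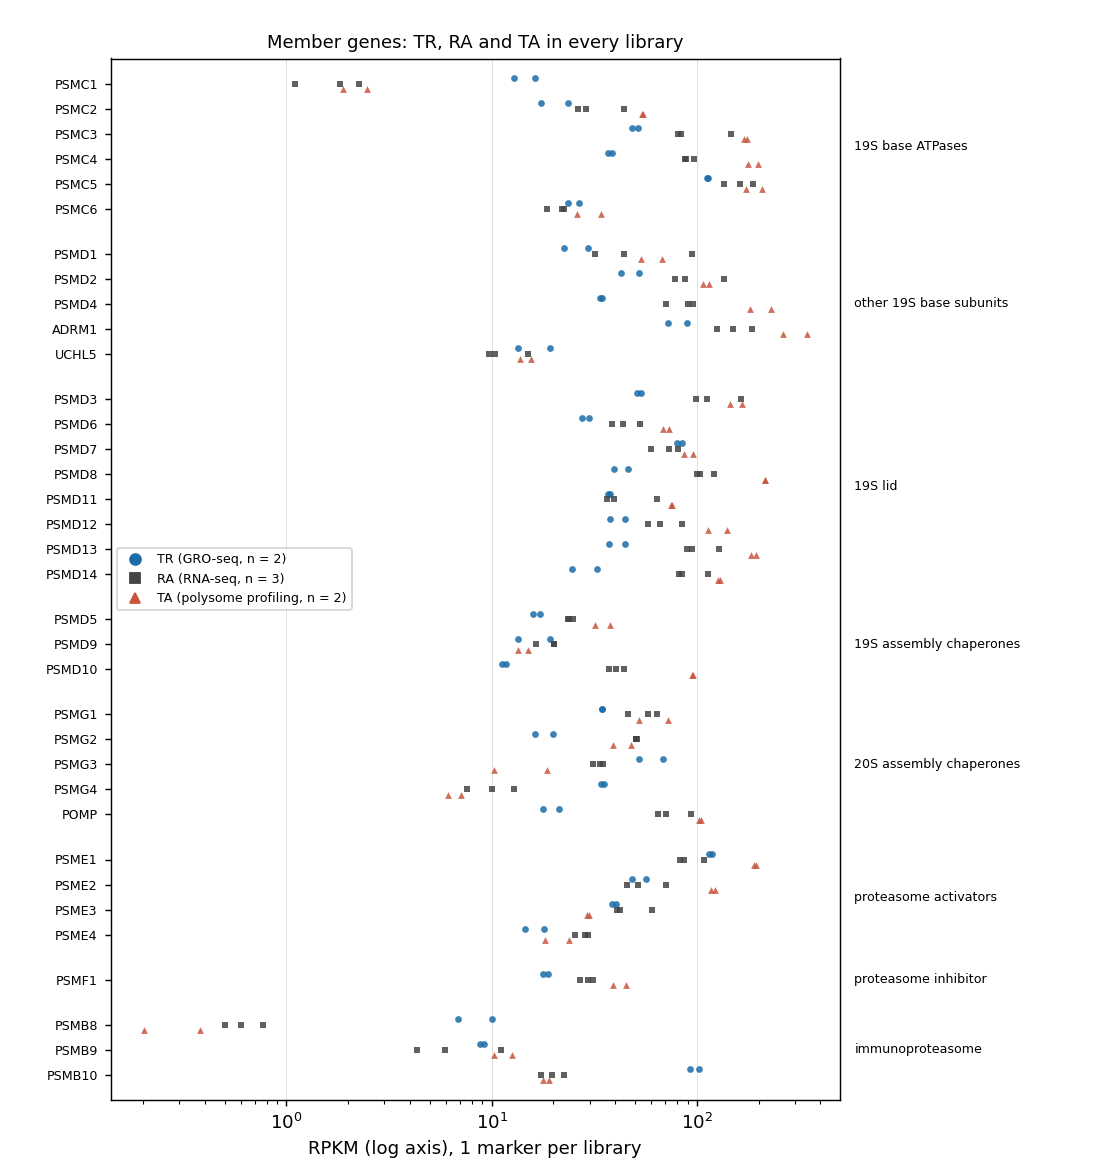
RPKM on a log axis for each of the 35 member genes, with 1 marker per library (circles, TR; squares, RA; triangles, TA) and the genes grouped by role. Most 19S genes lie further right in RA and TA than in TR, while PSMC1, PSMB8 and PSMB10 lie further left, with PSMB8 under 1 RPKM in all 5 RA and TA libraries.

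A pair of indices describes each gene, both computed from mean RPKM. The stability index, log2(RA/TR), sets mRNA abundance against transcription. Decay was not measured, and the paper uses this ratio as an operational estimate of stability. TR and RA come from different assays, so a difference of method and a difference of decay cannot be told apart. High or low in stability refers below to this ratio only. The translation index, log2(TA/RA), sets polysome-associated mRNA against total mRNA. Because RPKM is relative to each library, an index compares a gene with the other genes, not with an absolute amount. Genes were tested with limma on log2(RPKM + 0.1), with Benjamini-Hochberg adjustment over 14305 genes that had at least 1 RPKM in at least 1 parameter. All 35 members passed this filter, PSMB8 only through TR. Adjusted p-values below are of this test, and a gene is called high or low where its adjusted p is under 0.05.

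In stability, 19 of 35 members were called high and 5 low, and 11 were not called. One of the 5, PSMB8, passed the filter through TR alone, so that its low index follows in part from the filter, and 4 were low where 1 RPKM was required in each parameter. Of all genes tested, 19.2% were called high and 48.0% low. With 1 RPKM required in each parameter, 2632 of 10825 genes were high and 3656 low, and 19 members were high. The median log2 difference over all genes was then -0.167 in place of -0.58, and the members' median index was 0.68. With the main filter the median stability index was 0.67 over the members and -0.50 over all genes. Between single RA and TR libraries the members' median ranged from 0.41 to 0.80. RA lay above TR in every pair of libraries for 22 members (24.3% of all genes) and below in every pair for 7 (54.9% of all genes). The count of high members was 11 without TR replicate 2, and the count of low members was 8 without RA replicate 1. Fewer of all genes were called high as well without TR replicate 2. The 20S core had 12 of 14 genes called high and a median of 1.55.

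In translation, 13 members were called high and 2 low, and 20 were not called. Of all genes tested, 6.66% were called high and 29.2% low. With 1 RPKM required in each parameter, 960 of 10825 genes were high and 3224 low, and 14 members were high and 2 low. With the main filter the median translation index was 0.46 over the members and -0.47 over all genes. The members' median ranged from 0.16 to 0.68 between single libraries. TA lay above RA in every pair of libraries for 19 members (14.4% of all genes) and below for 7 (43.8% of all genes). The count of 13 was 6 without RA replicate 3, 5 without TA replicate 1 and 7 without TA replicate 2, and the 2 low members became 0 without TA replicate 1 and 1 without TR replicate 1, TR replicate 2, RA replicate 3 or TA replicate 2. Calls over all genes fell as well, from 953 to 422 of 14305 high without RA replicate 3. They also fell without either TA library. With a block for the replicate number, 109 of all genes and 3 members (PSMC4, PSMD4 and PSMD10) were high. The 20S core had 10 of 14 genes called high in the main fit and a median of 0.82.

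The all-gene medians depend on the scale. With each library centred on its median, 5066 of 14305 genes were high and 4814 low in stability, in place of 2743 and 6870, and 2713 were high and 1404 low in translation, in place of 953 and 4173. On that scale 25 members were high and 4 low in stability, and 23 were high in translation, where limma called 0 low (1 at an unadjusted p under 0.05). The median log2 difference over all genes then moved from -0.58 to 0.09 in stability and from -0.37 to 0.13 in translation.

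**Figure D2:**
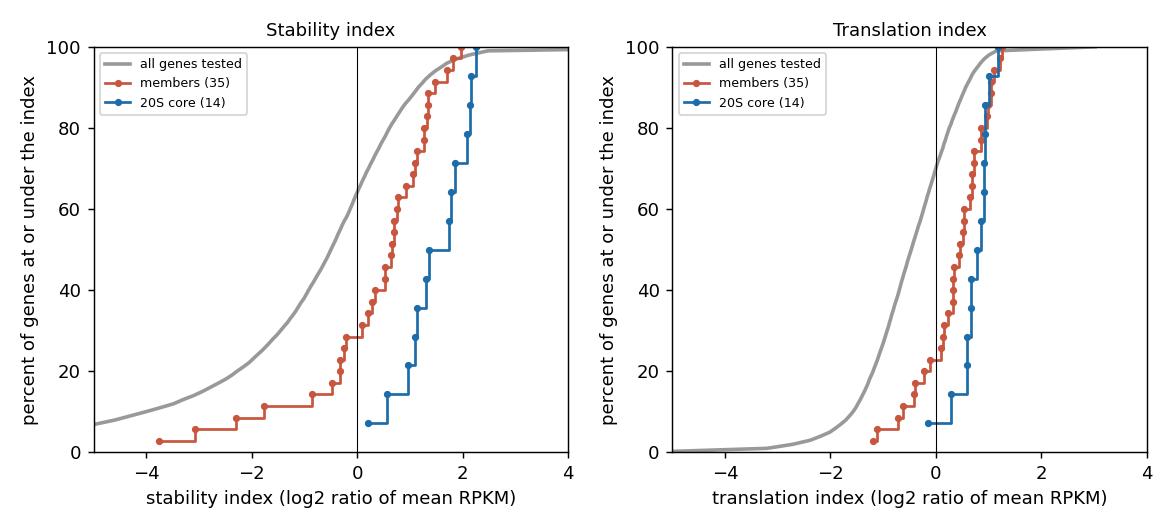
Percent of genes at or under each value of the stability index (left) and the translation index (right), for all genes tested that were above 0 in TR, RA and TA (gray), the 35 members (orange) and the 14 genes of the 20S core (blue). The members' curve lies right of that of all genes over most of its range, with medians of 0.67 and 0.46, and in stability it keeps a tail of 5 genes below -0.8.

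The 19S base. The 6 ATPases form the ring that unfolds substrates. PSMC4 was high in both indices, with 38.4 and 36.8 RPKM in TR, 96.3, 88.4 and 87.4 RPKM in RA, and 198 and 177 RPKM in TA. The 3 parameters did not overlap, with a log2 difference of 1.27 ± 0.16 (SE) in stability (adjusted p = 0.00021) and 1.04 ± 0.16 in translation (adjusted p = 0.0043). PSMC5 had the highest RA of the ATPases, and of all members, with 189, 163 and 136 RPKM. Its TR was 112 and 114 RPKM and its TA 207 and 173 RPKM. RA exceeded TR in every library, but the difference of 0.52 ± 0.21 did not pass the test (adjusted p = 0.062), and TA overlapped RA. PSMC2 was called high in both indices close to the threshold (adjusted p = 0.042 and 0.047), and its stability call was lost without any single library except RA replicate 2 and its translation call without any except RA replicate 1. PSMC3 was called high in stability with a log2 difference of 1.002 ± 0.27 (adjusted p = 0.012), a call that was lost without TR replicate 1 (adjusted p = 0.073) or TR replicate 2 (adjusted p = 0.1). In translation it was called high without RA replicate 1 (1.07, adjusted p = 0.0066). PSMC6 was called in neither index, at -0.25 ± 0.18 in stability and 0.50 ± 0.18 in translation.

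PSMC1 stood apart from the other ATPases. It had 12.8 and 16.2 RPKM in TR, 2.27, 1.82 and 1.10 RPKM in RA, and 2.46 and 1.88 RPKM in TA. These RA values rested on 73, 65 and 36 reads, where PSMC4 had 3441 to 3811. RA lay below TR in every library, with a log2 difference of -3.04 ± 0.32 (adjusted p = 7.1e-05). In translation the difference was 0.35 ± 0.32 (adjusted p = 0.42). This measurement is uncertain, because every one of the 1289 coding stretches of 32 bases in PSMC1 has an exact copy outside the gene in GRCh37, 97.5% of them at chr3:68684856-68686175, a stretch as long as the coding sequence itself (1320 bases). PSMC1 itself lies at chr14:90722871-90741773, on the plus strand, and 47.7% of its coding bases overlap exons of NRDE2 on the opposite strand. A stretch from a coding exon of PSMC1 and from the copy, both on the plus strand of GRCh37, shows the identity and is printed for that reason.
PSMC1, chr14:90734648-90734677: aagtacctaggtgatgggcccaaactcgta
copy, chr3:68685627-68685656: aagtacctaggtgatgggcccaaactcgta
How reads with several equal matches were counted is not given in the sources used here, and the part of the copy or of NRDE2 in the low value of PSMC1 was not tested. At least 20% of coding stretches also had copies elsewhere for 5 other members, namely PSMC6 (62.5%), PSME2 (49.4%), PSMD4 (41.0%), PSMD10 (28.9%) and PSMD2 (23.3%), while 20 members had none. Without these 6 genes, 16 members were high and 4 low in stability, and 10 were high and 2 low in translation.

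Of the other base subunits, PSMD1 and PSMD2 are the large scaffolds, and PSMD4, ADRM1 and PSMD2 bind ubiquitin or ubiquitin-like domains. PSMD4 had the highest translation index of the members. Its values were 33.9 and 34.4 RPKM in TR, 90.3, 95.2 and 70.5 RPKM in RA, and 228 and 182 RPKM in TA. The 3 parameters did not overlap, with log2 differences of 1.31 ± 0.20 in stability (adjusted p = 0.0006) and 1.27 ± 0.20 in translation (adjusted p = 0.0044). ADRM1 was the most abundant member in TA. It had 89.2 and 71.9 RPKM in TR, 186, 125 and 150 RPKM in RA, and 263 and 343 RPKM in TA. Its differences were 0.92 ± 0.25 (adjusted p = 0.011) and 0.98 ± 0.25 (adjusted p = 0.019). The first call was lost without TR replicate 2 (adjusted p = 0.097), and the second without RA replicate 3 (0.058), TA replicate 1 (0.051) or TA replicate 2 (0.11). PSMD2 was high in stability (1.06 ± 0.26, adjusted p = 0.0066, but 0.082 without TR replicate 2) with no call in translation (0.18 ± 0.26). PSMD1 was called in neither index, although it was high in stability without RA replicate 2 (1.32, adjusted p = 0.0099). Its RA of 95.1 RPKM in replicate 1 was far above the 31.8 and 44.1 RPKM of the others, and gave the largest replicate spread among the members. UCHL5, a deubiquitinase that docks on ADRM1, was the lowest base subunit apart from PSMC1, at 11.7 ± 2.90 RPKM in RA (SD, n = 3), and RA overlapped TR. Its stability difference of -0.48 ± 0.25 (adjusted p = 0.12) was called low without RA replicate 1 (-0.67, adjusted p = 0.029).

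The 19S lid carries the deubiquitinase PSMD14, which removes the ubiquitin chain as the substrate enters, and its structural partner PSMD7. A further lid subunit, SHFM1, is not a member and is given with the partners below (stability index 2.42). Among the members, PSMD14 had the highest stability index of the 19S subunits, at 1.70. It had 32.5 and 24.7 RPKM in TR, 113, 81.5 and 84.6 RPKM in RA, and 130 and 126 RPKM in TA. RA was well above TR in every library (1.69 ± 0.21, adjusted p = 0.00018), while the smaller step to TA did not pass the test (0.48 ± 0.21, adjusted p = 0.11) unless RA replicate 1 was left out (0.62, adjusted p = 0.039). PSMD7 differed from its partner, with a TR of 80.3 and 84.2 RPKM, an RA of 80.7, 72.9 and 59.8 RPKM and a TA of 95.7 and 86.1 RPKM. It was called in neither index. PSMD3 had the highest RA of the lid, with 164, 98.8 and 111 RPKM, against a TR of 53.4 and 51.0 RPKM and a TA of 145 and 166 RPKM. Its stability difference was 1.22 ± 0.24 (adjusted p = 0.0023), and TA overlapped RA, with a translation call only without RA replicate 1 (0.56, adjusted p = 0.044). PSMD6, PSMD8, PSMD12 and PSMD13 were high in both indices, with log2 differences of 0.64 to 1.34 in stability and 0.66 to 0.996 in translation. The stability calls of PSMD6 and PSMD12 were lost without TR replicate 2 (adjusted p = 0.079 and 0.13), and the translation calls of PSMD6, PSMD12 and PSMD13 without RA replicate 3 or TA replicate 1 (adjusted p from 0.058 to 0.13). Those of PSMD6 and PSMD13 were also lost without TA replicate 2 (0.074 and 0.056), and that of PSMD6 without RA replicate 2 (0.053). PSMD11 was called in neither, at 0.28 ± 0.25 and 0.73 ± 0.25, but was high in translation without RA replicate 1 (0.98, adjusted p = 0.0068). In all, 6 of 8 lid members were high in stability and 4 of 8 in translation. With a block for the replicate number these counts were 6 and 0.

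Most of the 19 base and lid subunits among the members occur once in each assembled cap. Their mRNA levels per length were not equal, and differed more in RA and TA than in TR. Leaving out PSMC1, the SD of log2 RPKM over 18 subunits was 0.716 and 0.740 in TR, 0.999, 1.024 and 1.013 in RA, and 1.089 and 1.139 in TA. The highest subunit exceeded the lowest by 6.42-fold and 8.48-fold in TR, by 12.5-fold to 16.7-fold in RA, and by 16.8-fold and 24.9-fold in TA. UCHL5 was the lowest in all 5 RA and TA libraries, and PSMC5 or ADRM1 the highest. With PSMC1 the SD in RA was 1.53 to 1.65. The SD over the 14 core genes was 0.74 and 0.75 in TR, 0.98 to 1.03 in RA, and 1.21 and 1.22 in TA. Over the 10823 genes that reached 1 RPKM in every parameter and were above 0 in every library, it rose in the same order, from 1.28 and 1.32 in TR to 1.68 to 1.72 in RA and 1.98 and 1.97 in TA.

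**Figure D3:**
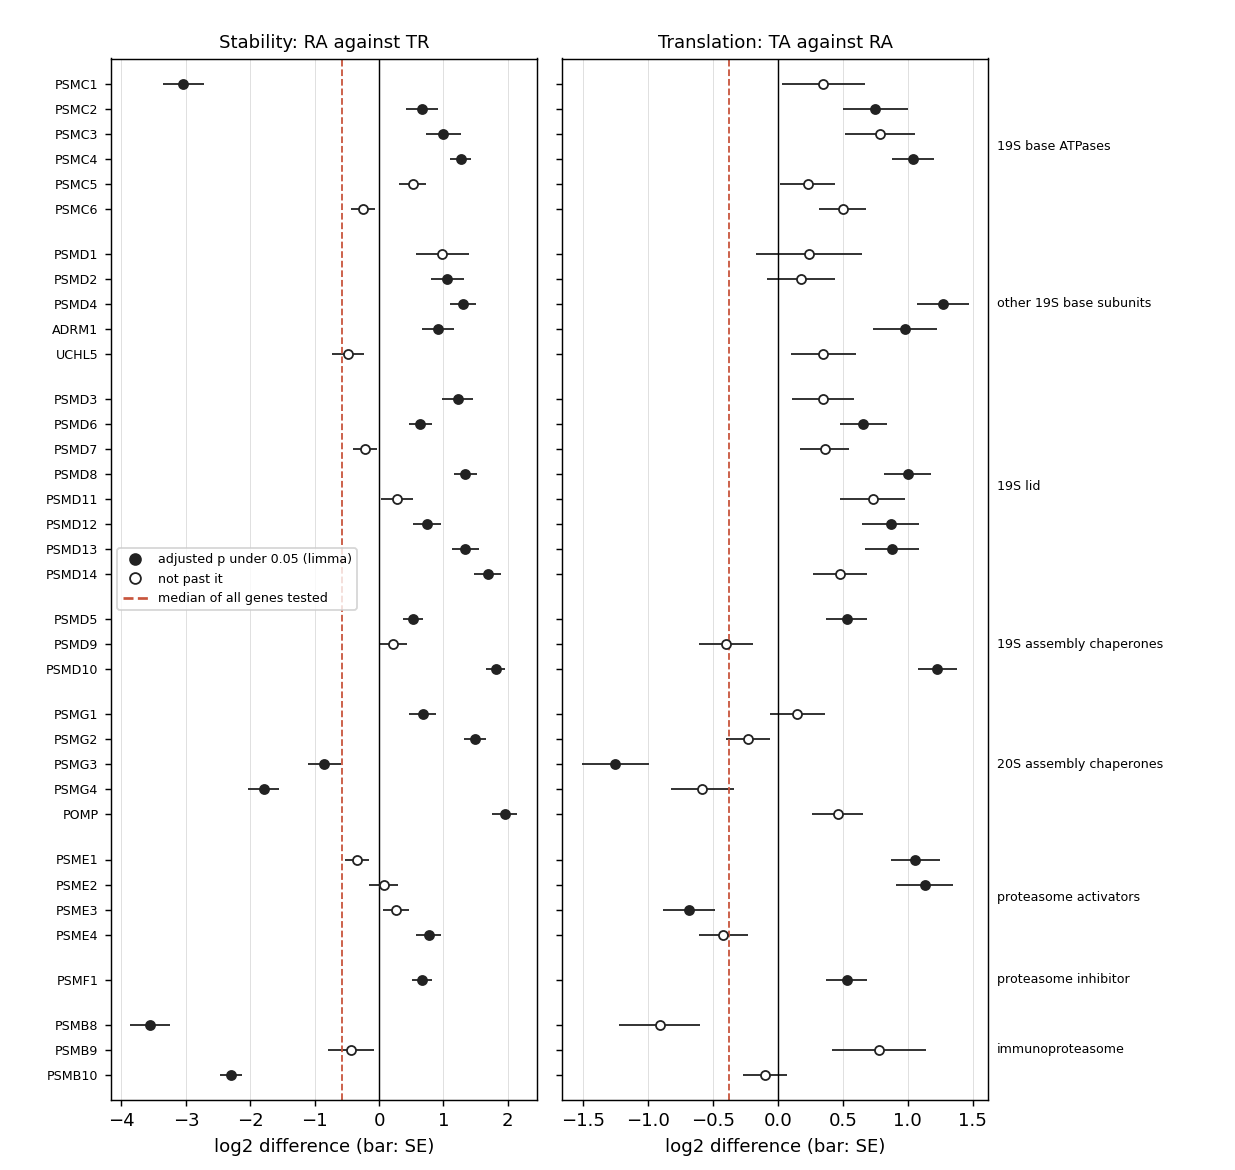
Log2 difference of RA against TR (left) and of TA against RA (right) for each member, with its standard error from limma as a bar. Filled points passed an adjusted p of 0.05, and the dashed lines mark the median of all genes tested, at -0.58 and -0.37. In stability, 25 of 35 members lie right of 0, and PSMC1, PSMG3, PSMG4, PSMB8 and PSMB10 are the 5 filled points on the left. PSMB8 was tested only because of its TR.

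The assembly chaperones included members at both ends of the stability index. PSMD5, PSMD9 and PSMD10 (gankyrin) each hold ATPases of the base before the ring is closed. PSMD10 was low in TR and rose through both steps. It had 11.2 and 11.7 RPKM in TR, 44.1, 37.2 and 40.4 RPKM in RA, and 95.2 and 94.2 RPKM in TA. With log2 differences of 1.81 ± 0.15 (adjusted p = 2e-05) and 1.23 ± 0.15 (adjusted p = 0.0031), it was among the 3 highest members in each index. PSMD5 had smaller differences in the same directions, 0.53 ± 0.16 in each (adjusted p = 0.016 and 0.032), with the first call lost without TR replicate 1 (adjusted p = 0.059) and the second without RA replicate 2, RA replicate 3 or either TA library (adjusted p from 0.053 to 0.19). PSMD9 was not called, at 0.22 ± 0.21 and -0.40 ± 0.21, although its TA of 15.1 and 13.5 RPKM lay below each of its RA values of 20.2, 20.1 and 16.4 RPKM.

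Of the 20S assembly chaperones, PSMG1 and PSMG2 form 1 pair, PSMG3 and PSMG4 another, and both pairs help arrange the ring of alpha subunits. POMP then guides the beta subunits. POMP had the highest stability index of all members, 1.97. It had 17.8 and 21.3 RPKM in TR, 93.8, 70.8 and 64.8 RPKM in RA, and 103 and 105 RPKM in TA, with a stability difference of 1.95 ± 0.20 (adjusted p = 6.4e-05). TA was called above RA only without RA replicate 1 (0.62, adjusted p = 0.029). PSMG1 and PSMG2 were high in stability as well, at 0.68 ± 0.21 (adjusted p = 0.02) and 1.49 ± 0.17 (adjusted p = 0.00011). The PSMG1 call was lost without TR replicate 1 (adjusted p = 0.093), TR replicate 2 (0.1) or RA replicate 2 (0.053).

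PSMG3 and PSMG4 went the other way. PSMG3 had 52.2 and 68.2 RPKM in TR, 31.0, 33.7 and 34.7 RPKM in RA, and 10.3 and 18.6 RPKM in TA. It was the only member called low in both indices, at -0.85 ± 0.26 in stability (adjusted p = 0.019) and -1.25 ± 0.26 in translation (adjusted p = 0.0097). Low calls were made for 48.0% of all genes tested in stability and 29.2% in translation. With each library centred on its median, PSMG3 was called in neither (-0.18, adjusted p = 0.54, and -0.75, adjusted p = 0.053). The stability call was lost without either TR library, and the translation call without TA replicate 1 (-0.83, adjusted p = 0.057). PSMG4 had 34.2 and 35.1 RPKM in TR, 12.9, 7.54 and 10.04 RPKM in RA, and 6.11 and 7.11 RPKM in TA. Its stability difference was -1.79 ± 0.24 (adjusted p = 0.00026) and its translation difference -0.58 ± 0.24 (adjusted p = 0.091, and -0.78 with 0.029 without RA replicate 2). In TR, PSMG4 lay near the level of PSMG1, at 34.7 and 34.3 RPKM, PSMG3 above it, and both above PSMG2, at 16.3 and 19.9 RPKM. In TA they were below both, since PSMG1 had 72.3 and 52.0 RPKM and PSMG2 39.0 and 47.7 RPKM there. The subunits of each pair shared the direction of the stability index, and the pairs did not.

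The activators also differed by partner. PSME1 and PSME2 are the alpha and beta subunits of 1 cytoplasmic PA28 ring and are known to be induced by interferon, PSME3 is the nuclear PA28 gamma, and PSME4 is PA200. PSME1 and PSME2 were called high in translation and were not called in stability. PSME1 had 114 and 118 RPKM in TR, 108, 86.3 and 83.1 RPKM in RA, and 190 and 193 RPKM in TA. RA lay under TR in every library without passing the test (-0.34 ± 0.19, adjusted p = 0.15) unless RA replicate 1 was left out (-0.45, adjusted p = 0.048). TA was above both (1.06 ± 0.19 against RA, adjusted p = 0.0061). PSME2 had 56.6 and 48.2 RPKM in TR, 70.7, 51.3 and 45.7 RPKM in RA, and 123 and 118 RPKM in TA. RA overlapped TR, and TA exceeded RA by 1.13 ± 0.22 (adjusted p = 0.0077, but 0.052 without TA replicate 1).

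PSME3 was called low in translation, as were 29.2% of all genes tested. With each library centred on its median it was not called (-0.18, adjusted p = 0.54). Its TR was 40.2 and 38.4 RPKM, its RA 60.7, 42.0 and 40.9 RPKM and its TA 29.75 and 28.97 RPKM. TA lay under every RA and TR value, with a difference of -0.68 ± 0.20 (adjusted p = 0.035), a call that was lost without RA replicate 3 (adjusted p = 0.053) or without either TR or either TA library. PSME4 was high in stability (0.77 ± 0.19, adjusted p = 0.0068, but 0.062 without TR replicate 2), and its TA of 23.7 and 18.1 RPKM was under its RA of 25.4, 29.6 and 28.6 RPKM without a call (-0.42 ± 0.19, adjusted p = 0.12). PSMF1 (PI31), which inhibits the core in the test tube, had 18.7 and 17.9 RPKM in TR, 29.5, 31.1 and 26.9 RPKM in RA, and 45.3 and 38.8 RPKM in TA. The 3 parameters did not overlap, and both differences passed the test (0.67 ± 0.16, adjusted p = 0.0059, and 0.53 ± 0.16, adjusted p = 0.035). The translation call of PSMF1 was lost without any single RA or TA library except RA replicate 1 (adjusted p from 0.052 to 0.2).

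Of the groups, the 3 immunoproteasome genes had the lowest median stability index, -2.30. That median includes PSMB8, which passed the filter through TR alone, and PSMB9, which was not called. PSMB10 had the most RA of the 3 and was transcribed strongly. It had 92.6 and 102.2 RPKM in TR, 19.6, 22.4 and 17.4 RPKM in RA, and 17.7 and 18.9 RPKM in TA, a stability difference of -2.30 ± 0.17 that was called low (adjusted p = 8.6e-06). TA overlapped RA. PSMB8 had 6.82 and 10.02 RPKM in TR, 0.5001, 0.601 and 0.768 RPKM in RA, and 0.201 and 0.377 RPKM in TA. These rested on 41 and 100 reads in TR, 18 to 28 in RA and 11 and 15 in TA. Its stability difference was -3.55 ± 0.31, given as a description, since PSMB8 was tested only because of its TR. Its translation difference of -0.91 ± 0.31 did not pass the test (adjusted p = 0.052), although both TA values were under all RA values, and was called low without RA replicate 1 (-1.04, adjusted p = 0.046) or without a trend in limma (adjusted p = 0.043). PSMB9 had 8.72 and 9.15 RPKM in TR, 11.05, 4.32 and 5.94 RPKM in RA, and 10.25 and 12.55 RPKM in TA. RA straddled TR and TA overlapped RA, so no call was made (adjusted p = 0.31 and 0.13). Without RA replicate 1, PSMB9 was low in stability (-0.81, adjusted p = 0.016) and high in translation (1.15, adjusted p = 0.011).

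The annotated spans of PSMB8 and PSMB9 overlap in the MHC region, at chr6:32808494-32812456 and chr6:32811913-32827628 in GRCh37, and PSMB10 lies at chr16:67968409-67970767. None of the 3 had a copied coding stretch. In PSMB10, 60.0% of the coding bases overlap an unnamed protein-coding gene annotated on the same strand, and whether the counting used that annotation is not given in the sources used here. Unnamed genes also covered 68.3% of coding bases in PSMD9, which was not called. They covered 100%, 91.0% and 89.7% in the core genes PSMA2, PSMA1 and PSMA6, all high in stability. The part of overlap in the indices was not tested.

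Each of these subunits takes the place of 1 core subunit, so the pairs can be set side by side per length. PSMB10 was 325% and 414% of PSMB7 in TR, 16.1% to 19.3% in RA, and 8.19% and 8.87% in TA, an order of levels that turned over between TR and RA. PSMB7 itself had 28.5 and 24.7 RPKM in TR and 98.5 to 122 RPKM in RA. PSMB8 was 14.1% and 18.4% of PSMB5 in TR, 0.362% to 0.631% in RA, and 0.0907% and 0.174% in TA. PSMB9 was 13.6% and 15.4% of PSMB6 in TR, 2.91% to 6.23% in RA, and 3.42% and 4.64% in TA. In each pair the share in every RA and TA library was under that in both TR libraries.

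**Figure D4:**
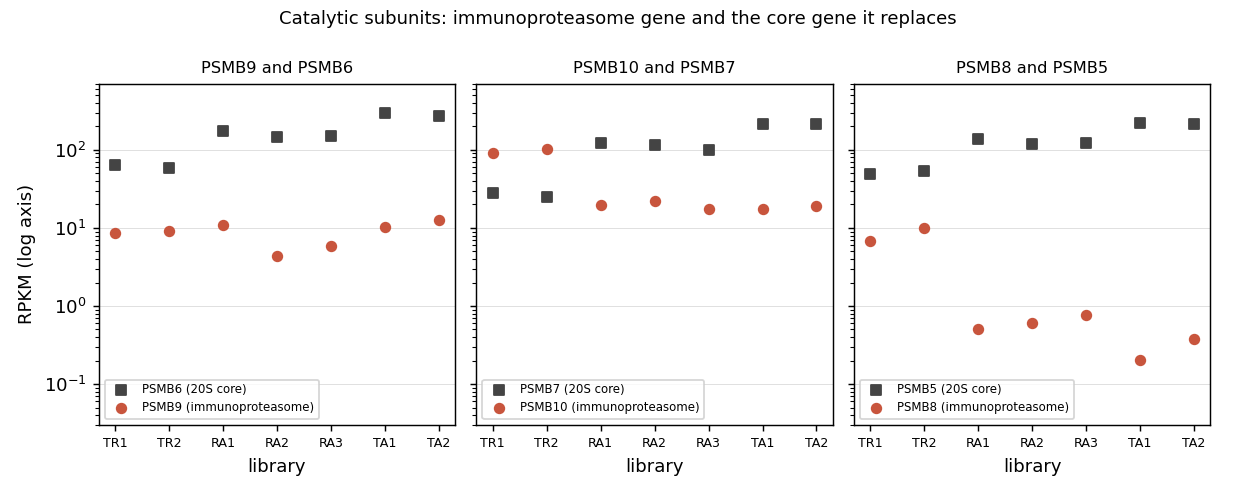
RPKM on a log axis in each of the 7 libraries for the 3 immunoproteasome subunits (circles) and the core subunit each replaces (squares). PSMB10 lies above PSMB7 in both TR libraries and below it in the 5 others, and PSMB8 lies under 1 RPKM in RA and TA while PSMB5 is above 100 RPKM there.

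Of 8 genes of the interferon response and of antigen processing, 2 were high and 4 low in stability (25% and 50%), close to the 19.2% and 48.0% of all genes, with a median index of -0.62, and 1 was low in translation. B2M, the light chain of MHC class I, was the highest in stability with an index of 2.52, and IRF1, a transcription factor that drives PSMB9, the lowest with -1.97. IRF1 had the highest translation index of this list, 0.72 (not called, adjusted p = 0.052), and NLRC5, which activates MHC class I genes, the lowest, -1.12.

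Among 20 partners of the proteasome (ubiquitin genes, shuttle factors, deubiquitinases and regulators), 9 were high and 4 low in stability (45% and 20%) with a median of 0.59, and 2 were high and 3 low in translation (10% and 15%, against 6.66% and 29.2% of all genes) with a median of -0.07. SHFM1, the smallest lid subunit, listed under this symbol and kept in this list, was highest in stability at 2.42 and was called low in translation at -1.12 ± 0.26 (adjusted p = 0.014). UBB, a polyubiquitin gene, had the highest translation index, 0.80, without a call. DDI2, the protease that releases NFE2L1 from the endoplasmic reticulum, was lowest in both indices at -1.43 and -1.27. NFE2L1, which is known to drive proteasome genes when the proteasome is inhibited, had 53.5 and 38.6 RPKM in TR, 60.7, 91.4 and 55.3 RPKM in RA, and 101.3 and 60.4 RPKM in TA, and was called in neither index. In the core, PSMB1 (2.26) and PSMA5 (0.21) bounded the stability index, and PSMB4 (1.18) and PSMB2 (-0.15) the translation index.

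NFE2L1 acts through the antioxidant response element, so the letters TGACNNNGC were searched on both strands from 250 bases before to 50 bases after the start of the canonical transcript. They occurred in 13 of 35 member promoters (37.1%), 3 of 14 core promoters (21.4%) and 14.6% of 13096 protein-coding promoters of genes tested. No other motif was searched. By group, 3 of 4 activators, 3 of 5 other base subunits, 2 of 3 chaperones of 19S assembly, 2 of 8 lid genes, 1 of 6 ATPases, 1 of 5 chaperones of 20S assembly and 1 of 3 immunoproteasome genes held a match, and PSMF1 held none. The 30 bases around a match are printed, 5′ to 3′ on the strand of the gene in GRCh37, for the activators PSME1 and PSME2, for the lid genes PSMD3 and PSMD12 and for PSMB9, with the match in capitals, as examples of groups with different indices.
PSME1, chr14:24605307-24605336, plus strand: atggcagggcTGACCCCGCctcctccatcc
PSME2, chr14:24615975-24616004, minus strand: ccctggactgTGACCCAGCcagcaccgcct
PSMD3, chr17:38137013-38137042, plus strand: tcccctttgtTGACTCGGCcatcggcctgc
PSMD12, chr17:65362839-65362868, minus strand: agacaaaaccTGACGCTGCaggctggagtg
PSMB9, chr6:32821811-32821840, plus strand: gggcggggctGCCTCGTCActtgtctcggg
The match in PSMB9 is on the opposite strand of the gene. A match is a description of these letters, and binding was not measured.

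The members' mRNAs also differed from other mRNAs in length. Their canonical transcripts had a median of 1589 bases, of which the untranslated regions took a median of 35.4%. For the 20S core these were 1004 bases and 23.5%, and for 13103 genes tested with an annotated coding transcript 3182 bases and 49.6%. Among the members the untranslated share ran from 6.5% (PSMD2) to 90.0% (PSMF1), and both of these were called high in stability. PSMB10 (16.2%), low in stability, was below the members' median share, as was PSMB8 (26.3%), whose low index follows in part from the filter. PSMG3 (74.4%), PSMG4 (53.0%) and PSMC1 (69.9%, with an uncertain measurement), also low in stability, were above that median. The part of transcript length in the indices was not tested.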

How the data were processed

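The authors mapped reads to hg19 (GRCh37) with TopHat, counted exonic reads with HTSeq and deposited the counts as RPKM for every gene in each library. The annotation, counting mode and strand setting are not given in the sources used here. Library sizes and gene lengths were solved so that each RPKM corresponded to a whole number of reads. The match of 100% of values within 1e-06 follows from that solution. A length was found for 18186 of 18187 genes above 0. On simulated data 7 of 7 library sizes and 96.9% of lengths were recovered exactly.

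The main test was limma 3.58.1 (R 4.3.3) with a trend on log2(RPKM + 0.1), all 7 libraries in 1 fit. In simulated RA against TR data over 14305 genes, it called 35% of genes changed by 1 on the log2 scale, 91% of those changed by 2 and 5 of 14105 unchanged genes. The simulation changed 100 genes at each size, while in the data 2743 genes were called high and 6870 low. The adjustment is stricter where few genes change, so these shares do not measure the sensitivity in the data. The solved size in exonic reads was lowest in TR (3391897 and 5629982). Member values differed more between RA libraries (median 1.38-fold) than between TR libraries (1.13-fold). Read numbers show counting error only, since reads without molecular identifiers are not independent molecules.

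Alternatives were other pseudocounts (0.01 and 1), filters, centring, other fits, a replicate block, each library left out and, added after seeing the data, voom weights on the recovered reads and omission of copied members. Copies of 32 bases, transcripts (GENCODE 44, lifted to GRCh37) and promoters were read from GRCh37, and 2 comparison symbols (SHFM1 and KIAA0368) had no annotation match. All members are named. Values in every library are given for the 3 highest and 3 lowest members of each index, members under 1 RPKM in RA and the highest RA of each subgroup, and for others chosen after their values were seen. The members and lists were chosen with earlier results of these data known, so no list was tested. Plots used Python.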

Additional observations from a re-analysis of the deposited data

How the results depend on the processing

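The medians of the members kept their sign under every alternative run, and were 0.67 and 0.44 without the copied members. They moved by more than the spread between library pairs with each library centred on its median, to 1.34 in stability and 0.98 in translation. Centring also gave 23 high and 0 low members in translation. The 2 low members in translation became 1 where only the 2 parameters compared were fitted. Leaving out 1 library at a time gave 11 to 19 high and 4 to 8 low members in stability, and 5 to 19 high and 0 to 3 low in translation. Fewer of all genes were also called high in each index whichever TR or TA library was left out. The members' medians were 0.52 to 0.75 and 0.39 to 0.57 without single libraries. Of the members called high, 10 of 19 in stability and 5 of 13 in translation stayed called without each library in turn, as did 4 of 5 called low in stability and 0 of 2 in translation (limma).

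The paper's scheme divides the cells into 3 parts for the 3 assays, but whether libraries with equal replicate numbers share a culture is not given. The correlation of replicate differences over 10825 genes was 0.149 between TR and RA, -0.562 between RA and TA and 0.02 between TR and TA. With 1 such difference per parameter, these values cannot decide whether the libraries are paired. A fit with the replicate block gave 16 high and 5 low members in stability, and 3 high and 1 low in translation, where RA replicate 3, alone in its number, adds nothing to the differences. Over all genes that fit gave 2083 high and 5996 low in stability, and 109 high and 1387 low in translation.

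Fits of single members changed sign only where no call was made. Centring turned the stability of PSMC6 (0.43), UCHL5 (0.20), PSMD7 (0.45), PSME1 (0.33) and PSMB9 (0.24) and the translation of PSMD9 (0.11), PSMG2 (0.27), PSME4 (0.08) and PSMB10 (0.40). Leaving out 1 library turned the stability of PSMD9 (-0.04 without TR replicate 1, in a range to 0.48) and PSME2 (-0.04 without TR replicate 2 and -0.11 without RA replicate 1, in a range to 0.21), and the translation of PSMD1 (-0.11 without RA replicate 2, in a range to 0.68) and PSMG1 (-0.09 without TA replicate 1, in a range to 0.38). Voom weights gave 19 high and 5 low in stability, and 13 and 2 in translation. The causes were not tested. PSMB8 had the fewest reads in RA and TA, 11 to 28 per library.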
